A study of Mus musculus with 6 samples.

Results

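Metabotropic glutamate (mGlu) receptors are the G protein-coupled receptors for glutamate, and 6 of their genes are described here: Grm2, Grm3, Grm4, Grm5, Grm7 and Grm8. They were chosen by gene name from the 32201 genes of the deposited expression table, and all 6 had a row there. Other genes of the family were not analysed here. RNA was sequenced from the hippocampus of 8-week-old male mice of the inbred strain C57BL/6N. All mice had been through chronic unpredictable mild stress (CUMS), a schedule of varied mild stressors used to produce depression-like behaviour in rodents. Of the 6 libraries, 3 came from stressed mice given saline and 3 from stressed mice given the flavonoid baicalin at 20 mg/kg. Every comparison is therefore baicalin against saline within stressed mice, and unstressed mice, which the labels mention, were not analysed here. The labels do not say whether each library came from its own animal. The p-values therefore reflect only how far these libraries scatter, which may be technical.

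Each mGlu receptor has a large extracellular domain that binds glutamate and a membrane-spanning domain that couples to a G protein. The group I receptor Grm5 couples to Gq, which activates phospholipase C and releases calcium from internal stores. In hippocampal pyramidal cells it sits mainly at the edge of the postsynaptic density and drives a form of long-term depression. Group II (Grm2 and Grm3) and group III (Grm4, Grm7 and Grm8) receptors couple to Gi/o, lower cyclic AMP, and mostly restrain transmitter release from presynaptic terminals. Grm3 is also made by astrocytes.

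Because the receptors are related in sequence, the first question was whether reads of one could be counted at another. The sequences below show the most alike stretch of 4 of their coding regions: 60 aligned bases from the membrane-spanning domain, 5′ to 3′ on the coding strand, with capitals where the 4 genes shown carry the same base. They set Grm5, the Gq-coupled member, beside the group III receptors.
Grm5: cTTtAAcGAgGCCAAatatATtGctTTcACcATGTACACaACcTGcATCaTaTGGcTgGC
Grm4: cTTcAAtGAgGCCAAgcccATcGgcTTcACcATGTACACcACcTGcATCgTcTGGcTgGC
Grm7: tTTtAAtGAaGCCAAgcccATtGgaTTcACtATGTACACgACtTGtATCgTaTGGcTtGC
Grm8: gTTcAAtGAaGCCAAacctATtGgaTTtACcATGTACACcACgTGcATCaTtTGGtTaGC

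In that window 40 of 60 bases were the same in all 4 genes, and any pair differed at 11 to 15 bases. The stretches lie at chr7:88074801-88074860 (plus strand, exon 7 of 9) for Grm5, chr17:27434576-27434635 (minus strand, exon 9 of 11) for Grm4, chr6:111358978-111359037 (plus strand, exon 8 of 11) for Grm7 and chr6:27363128-27363187 (minus strand, exon 9 of 11) for Grm8. Positions are those of transcripts in GENCODE mouse release 21 (GRCm38, the assembly named mm10 in the notes).

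Over the whole coding sequence the receptor groups showed clearly. Grm2 and Grm3 had the same base at 66.2% of aligned positions and Grm4, Grm7 and Grm8 at 67.8 to 69.0% for each pair, against 50.7 to 56.0% between receptors of different groups. The longest run shared by any pair of coding sequences was 27 bases, found for Grm3 with Grm4. No 50-base stretch of any of the 6 genes' transcripts occurred in another of the 6. A read that matches 50 bases of one of them therefore names that receptor among the 6. Overlaps with genes outside the 6 were small. Of the 10291 distinct 50-base stretches of Grm5 transcripts, 14 (0.136%) also occurred among transcripts of 517 other genes, on either strand. In the exons of Grm2, 470 of 4894 bases lie opposite the antisense gene Gm28111. For Grm7, 130 of 5886 lie opposite Gm20387, and 96 of 9898 of Grm8 hold Mir592. It is not known from the sources whether strand entered the counting, so reads in those stretches of Grm2 and Grm7 cannot be divided between the strands.

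Library totals ran from 61303274 to 67957752 counts, and no 2 libraries had identical values. Markers of hippocampal neurons were present in every library, with 8 of 8 dentate granule cell, 7 of 7 CA1 and 6 of 6 CA2 and CA3 markers at a mean of at least 1 FPKM (fragments scaled to transcript length and to the fragments mapped in the library). Some libraries stood apart. Baicalin library 2 had the highest summed choroid plexus markers, at 119 CPM (counts scaled to library size) against 42.6 to 83.1 CPM in the other 5. Most of that was Ttr (80.8 CPM against 10.6 to 44.8 CPM); Kl was at 29.5 CPM against 29.3 to 32.4 CPM, and Folr1, Clic6 and Aqp1 were below the 1 FPKM filter. Saline library 3 had the highest summed meningeal markers, at 98.5 CPM against 50.01 to 58.0 CPM. Saline library 2 had the lowest summed dentate granule cell markers (313 CPM against 450 to 481 CPM), and baicalin library 3 the highest share of mitochondrial counts (8.69% against 7.18 to 7.82%).

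On the per-length FPKM scale, Grm5 was the most abundant of the 6 transcripts in the stressed hippocampus, at a mean of 12.8 FPKM over the 6 libraries. Grm7 followed at 7.13 FPKM, then Grm3 at 6.88 and Grm2 at 5.87 FPKM. Grm4 was much lower at 1.09 FPKM and Grm8 lowest at 0.301 FPKM. Grm5 was above Grm7 in 6 of 6 libraries (by at most 2.02 times). The order in the middle was less settled. Grm7 was above Grm3 in 5 of 6 libraries and Grm3 above Grm2 in 5 of 6, so these neighbours were not separated by more than their spread. Grm2 was above Grm4 in every library by at least 4.24 times, and Grm4 above Grm8 by 2.87 to 4.35 times.

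**Figure D1:**
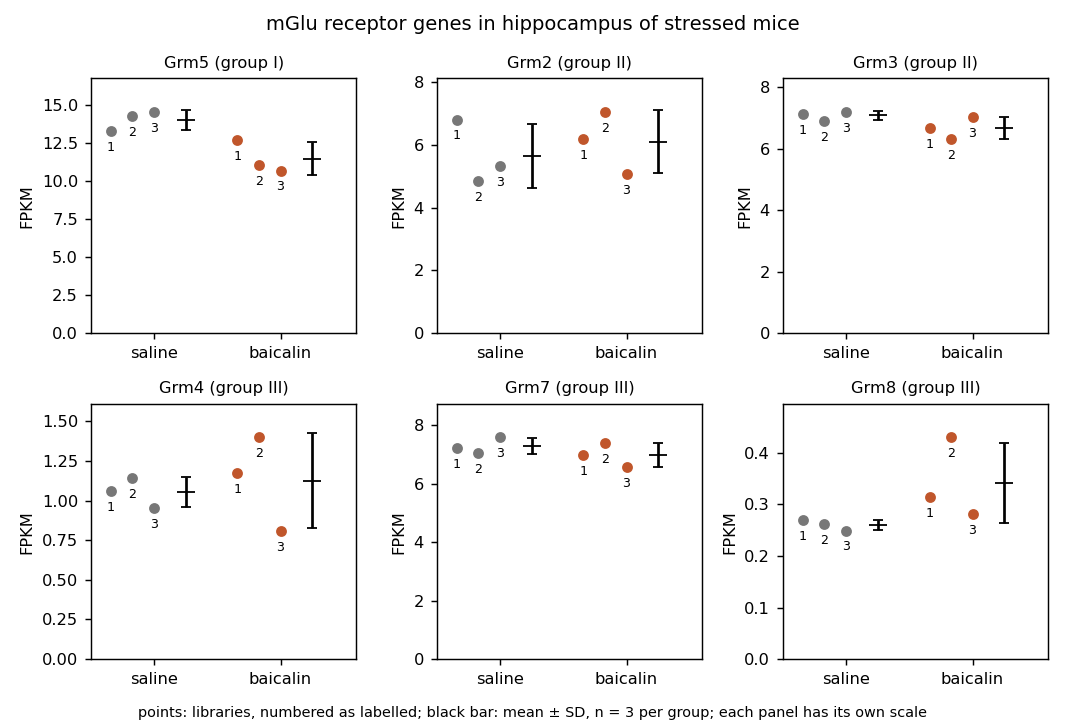
FPKM of 6 mGlu receptor genes in each of the 6 libraries (numbered points, grey for saline and orange for baicalin), with the mean and SD of 3 libraries as black bars; each panel has its own vertical scale from 0. The baicalin points of Grm5 (10.7 to 12.7 FPKM) lie below all its saline points (13.3 to 14.6 FPKM), and those of Grm8 lie above.

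Grm5 was lower with baicalin in these libraries, by about 18%, and this difference did not pass the threshold after adjustment. The gene (ENSMUSG00000049583, chr7:87584168-88130869, plus strand) encodes mGlu5, the main Gq-coupled mGlu receptor of forebrain neurons. Saline libraries 1, 2 and 3 had 13.3, 14.2 and 14.6 FPKM, and baicalin libraries 1, 2 and 3 had 12.7, 11.0 and 10.7 FPKM. All 3 baicalin libraries were below all 3 saline libraries, with baicalin library 1 nearest to the saline group. The means were 14.0 ± 0.658 FPKM (SD, n = 3) for saline and 11.5 ± 1.07 FPKM (SD, n = 3) for baicalin. In counts, 10268 to 11557 reads stood behind each saline value and 7666 to 9560 behind each baicalin value.

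In edgeR's quasi-likelihood test the log2 change of Grm5, baicalin minus saline, was -0.28 ± 0.07 (SE), with a 95% interval of -0.46 to -0.11. That corresponds to 0.822 times the saline level. The unadjusted p was 0.00729 in the edgeR fit, and the adjusted p was 0.324 (Benjamini-Hochberg over 13153 genes), above the threshold of 0.05. By unadjusted p Grm5 ranked 294 among those genes, and 12.6% of them had a larger change in either direction. Genes with long transcripts were somewhat lower with baicalin as a class: those in the length class of Grm5, whose exons span 10247 bases against a median of 4097.5 among tested genes, had a median log2 change of -0.07. With that length trend removed the Grm5 log2 change was -0.22.

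Markers of CA1 pyramidal cells, which express Grm5, were lower in the same libraries. Their sum was 621 to 750 CPM with baicalin and 768 to 805 CPM with saline, with no overlap. Of the 7 CA1 markers, 6 had a negative change, 3 had an unadjusted p under 0.05 (against 11.8% of all tested genes) and 0 passed the threshold in edgeR, and none was at 0. The other hippocampal lists did not share this direction. Dentate granule cell markers had a median log2 change of 0.19 (6 of 8 positive). CA2 and CA3 markers had one of 0.04 (4 of 6 positive), and the sums of both lists overlapped between groups. In bulk tissue, fewer cells of a type and less RNA per cell cannot be told apart, and the part of these cell types in the Grm5 difference was not tested. Markers of neurons in general overlapped in their sum, at 10938 to 11362 CPM with baicalin and 11054 to 11548 CPM with saline. Of these 8 markers, 5 had a positive and 3 a negative change. Slc17a7 (-0.16 ± 0.06, SE) and Camk2a (-0.08 ± 0.05, SE) were wholly lower with baicalin, 2 of the 8 against 9.52% of all tested genes, and 0 were wholly higher. The smallest unadjusted p of the 8 was that of Map2 (0.0293, edgeR), whose change was positive, 0.37 ± 0.13 (SE), with groups that overlapped.

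The group II receptors did not share a direction. Grm2 (ENSMUSG00000023192, chr9:106643095-106656080, minus strand) encodes the presynaptic receptor mGlu2, known in the hippocampus from the mossy fibres of dentate granule cells. Saline libraries 1, 2 and 3 had 6.80, 4.84 and 5.31 FPKM and baicalin libraries 1, 2 and 3 had 6.17, 7.05 and 5.06 FPKM. The highest value was in baicalin library 2 and the lowest in saline library 2, but saline library 1 exceeded 2 of the 3 baicalin libraries, and the groups overlapped. The log2 change was 0.12 ± 0.16 (SE), with a 95% interval of -0.27 to 0.50 (adjusted p = 0.793, edgeR), which spans a fall to 0.831 times and a rise to 1.41 times the saline level. Without saline library 2, the library lowest in dentate granule cell markers, the Grm2 change was 0.02, and without baicalin library 2 it was 0.01. Leaving out saline library 1 instead raised the Grm2 change to 0.27. The part of dentate granule cells in the Grm2 values was not tested.

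Grm3 (ENSMUSG00000003974, chr5:9485541-9725170, minus strand) encodes mGlu3 of neurons and astrocytes. Of the 6 members it varied least in FPKM within each group. Its coefficient of variation (SD over mean) was 2.15% with saline and 5.36% with baicalin. Grm3 had 7.14, 6.92 and 7.21 FPKM in saline libraries 1, 2 and 3 and 6.68, 6.31 and 7.03 FPKM in baicalin libraries 1, 2 and 3. The baicalin values tended lower, but baicalin library 3 was above saline library 2. The log2 change was -0.08 ± 0.07 (SE), with a 95% interval of -0.25 to 0.09 (adjusted p = 0.672, edgeR). The lower end of that interval is 0.841 times the saline level. Under TPM scaling in limma the Grm3 change was -0.15 ± 0.06 (SE). Astrocyte markers, of which 9 of 9 were tested, summed to 3544 to 3903 CPM with baicalin and 3507 to 3839 CPM with saline and overlapped as well.

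Of the group III receptors, Grm7 had the narrowest interval. Grm7 (ENSMUSG00000056755, chr6:110645581-111566067, plus strand) encodes mGlu7, a low-affinity receptor of the presynaptic active zone. It had 7.22, 7.06 and 7.58 FPKM in saline libraries 1, 2 and 3 and 6.97, 7.38 and 6.57 FPKM in baicalin libraries 1, 2 and 3. The groups overlapped, with baicalin library 2 above 2 of the 3 saline libraries. The log2 change was -0.06 ± 0.06 (SE), with a 95% interval of -0.20 to 0.09 (adjusted p = 0.729, edgeR).

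Grm4 (ENSMUSG00000063239, chr17:27422387-27513726, minus strand) encodes mGlu4, a presynaptic receptor best known from cerebellum, and was near the expression filter. Saline libraries 1, 2 and 3 had 1.06, 1.14 and 0.953 FPKM, and baicalin libraries 1, 2 and 3 had 1.17, 1.40 and 0.808 FPKM. The baicalin group held both the highest and the lowest value of the 6. The log2 change was 0.11 ± 0.20 (SE), with a 95% interval of -0.37 to 0.58 (adjusted p = 0.849, edgeR), and it was -0.07 without baicalin library 2. Between 340 and 621 counts stood behind each value, and the coefficient of variation of Grm4 was 9.01% over the saline and 26.5% over the baicalin libraries.

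Grm8 (ENSMUSG00000024211, chr6:27275119-28134545, minus strand) encodes mGlu8, another presynaptic Gi/o-coupled receptor, and was the only member below the filter of a mean of 1 FPKM. It was read from the same kind of edgeR fit with that filter left off (25262 genes). Saline libraries 1, 2 and 3 had 0.269, 0.262 and 0.249 FPKM, and baicalin libraries 1, 2 and 3 had 0.315, 0.430 and 0.281 FPKM. All 3 baicalin values were above all 3 saline values, with most of the distance in baicalin library 2. The log2 change was 0.39 ± 0.18 (SE), with a 95% interval of -0.03 to 0.81 (adjusted p = 0.605, edgeR), from 193 to 204 counts per saline library and 197 to 319 per baicalin library. Without baicalin library 2 the Grm8 change was 0.21.

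Counted together, 0 of the 5 members that passed the filter was past the adjusted threshold in edgeR, as were 0 in DESeq2 and 0 in each limma fit; over all tested genes edgeR called 6 (0.0456%), 2 higher and 4 lower with baicalin (3 and 3 under TPM scaling). At an unadjusted p under 0.05, 1 of the 5 (Grm5) was reached, against 11.8% of all tested genes in either direction and 5.46% in the lower direction. The groups did not overlap for 1 of the 5, again Grm5, against 19.4% of all tested genes (9.52% in the lower and 9.93% in the higher direction). For Grm8 the matching share in the unfiltered fit was 15% of genes in either direction and 7.78% in the higher direction. Of the 5 members, 3 had a negative and 2 a positive change, where 50.2% of all tested genes had a negative and 49.8% a positive one. With 5 genes, a single one so placed is near these shares.

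**Figure D2:**
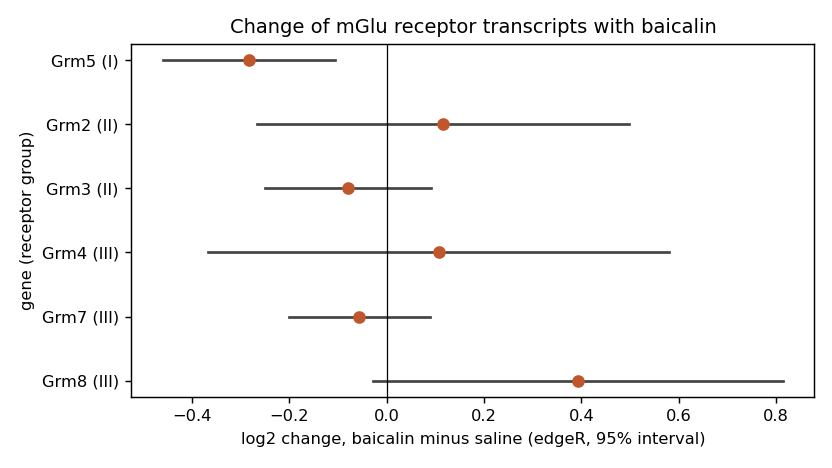
Log2 change with baicalin for 6 mGlu receptor genes (points) with 95% intervals (lines) from edgeR, 3 libraries against 3; Grm8 is from the fit without the FPKM filter. The interval of Grm5 (-0.46 to -0.11) lies wholly below 0, and the other 5 cross it.

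Summed by receptor group, Grm5 had the lowest ratio of baicalin to saline; differences between the groups were not tested. Grm5 had a ratio of mean FPKM of 0.818, or 0.780 on the TPM scale. Group II summed to 12.7 ± 1.10 FPKM with saline and 12.8 ± 0.642 FPKM with baicalin (SD, n = 3 each), a ratio of 1.002, or 0.955 on the TPM scale. Group III summed to 8.59 ± 0.166 and 8.44 ± 0.776 FPKM (SD, n = 3 each), a ratio of 0.982, or 0.936 on the TPM scale, on which all 3 ratios were below 1. The 6 members together summed to 35.4 ± 0.779 FPKM with saline and 32.7 ± 1.96 FPKM with baicalin (SD, n = 3 each). Within that sum, the share of Grm5 was 39.7 ± 2.23% with saline and 35.1 ± 2.24% with baicalin (SD, n = 3 each), with ranges that overlapped, through saline library 1 (37.2%) and baicalin library 1 (37.3%). The group II share was 36.0 ± 2.59% and 39.1 ± 1.13% (SD, n = 3 each), also overlapping. The group III share was 23.9 to 24.5% with saline and 24.9 to 27.4% with baicalin, without overlap. These shares are parts of the same sum, so a lower Grm5 share goes with higher shares elsewhere. The summed group III FPKM itself overlapped, at 8.46 to 8.78 with saline and 7.65 to 9.21 with baicalin.

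For several members the change moved with the libraries kept. Baicalin library 2 had the highest Grm2, Grm4 and Grm8 of all 6 libraries and the lowest Grm3. Without it, the log2 change of Grm2 went from 0.12 to 0.01, that of Grm4 from 0.11 to -0.07 and that of Grm8 from 0.39 to 0.21. The Grm5 change, by contrast, was -0.25 without it. Leaving out each library in turn gave Grm5 changes of -0.37 to -0.24, the largest without baicalin library 1. The same library 2 had the high Ttr level given above. It also had the lowest summed markers of CA1 cells (621 CPM) and of neurons in general (10938 CPM), and the highest of oligodendrocytes (2530 CPM). The part of choroid plexus tissue and of these cell types in the values of Grm2, Grm4 and Grm8 was not tested.

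**Figure D3:**
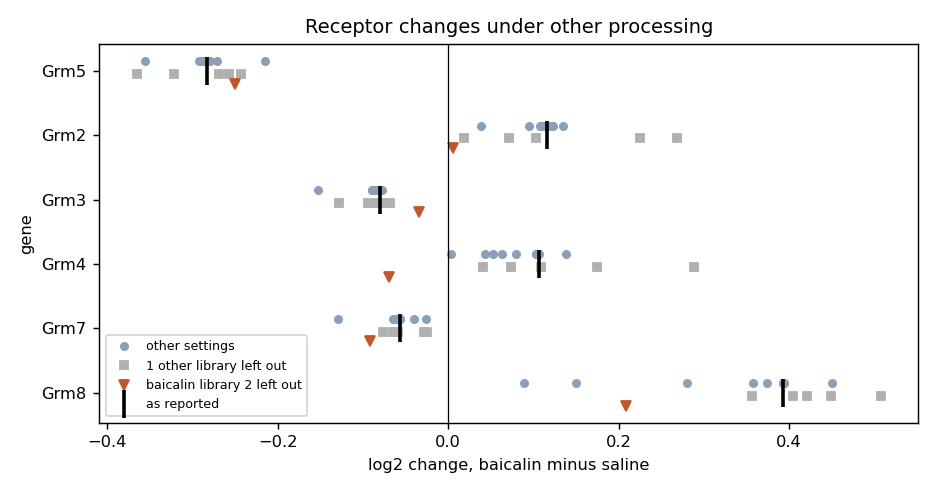
Log2 change of each member (horizontal axis) as reported (black bar), under other processing settings (blue), with 1 library left out (grey squares) and with baicalin library 2 left out (orange triangles). Grm5 stays between -0.37 and -0.22 in all 18 alternatives, whereas Grm4 crosses 0 without baicalin library 2.

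Genes of Gq and phospholipase C signalling, to which Grm5 couples, were mostly lower with baicalin, and 0 of 15 tested passed the threshold in edgeR. The list is not particular to Grm5. In the list of Gq and phospholipase C signalling, 14 of the 15 had a negative change, 8 had an unadjusted p under 0.05, 6 had baicalin values wholly below the saline values and 0 wholly above. Over all tested genes 50.2% had a negative change, 11.8% an unadjusted p under 0.05 and 9.52% baicalin values wholly below saline. The median log2 change was -0.16, against -0.00063 over all tested genes. DESeq2 called 2 of them, Prkca and Prkcb (adjusted p = 0.0170 and 0.0331), among 211 of all 13153 genes, and limma called 0. With the length trend removed the list's median was -0.11, and under TPM scaling, which lowered the median of all genes to -0.07, it was -0.23. CA1 markers, with a median of -0.27, were lower in the same libraries. Dentate granule cell markers had a median of 0.19 (6 of 8 positive), but their sums overlapped. They were 461 to 481 CPM with baicalin and 313 to 481 CPM with saline, the lowest in saline library 2. The part of CA1 and dentate granule cells in the values of this list was not tested.

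Among these genes, Prkca and Prkcb encode the calcium-dependent kinases PKCα and PKCβ, which diacylglycerol activates. Prkca had 431, 463 and 449.5 CPM in saline libraries 1, 2 and 3 and 399, 362 and 359.9 CPM in baicalin libraries 1, 2 and 3, a log2 change of -0.26 ± 0.06 (SE; adjusted p = 0.310, edgeR). Prkcb had 308, 329 and 291 CPM with saline and 268, 260.1 and 258 CPM with baicalin, a log2 change of -0.24 ± 0.05 (SE; adjusted p = 0.310, edgeR). In both genes every baicalin library was below every saline library, and as with Grm5 baicalin library 1 was nearest to the saline values.

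Itpr1, the inositol trisphosphate receptor that releases stored calcium, was at 462 ± 17.1 CPM with saline and 409 ± 9.75 CPM with baicalin (SD, n = 3 each), also without overlap (-0.18 ± 0.04, SE; adjusted p = 0.322, edgeR). Dagla, which makes the endocannabinoid 2-arachidonoylglycerol from diacylglycerol, was at 203 ± 5 and 183 ± 7.62 CPM (SD, n = 3 each; -0.15 ± 0.05, SE; adjusted p = 0.353, edgeR). The 2 genes that stand directly behind the receptor differed less clearly. Plcb1, the phospholipase itself, had a log2 change of -0.17 ± 0.06 (SE; adjusted p = 0.405, edgeR) with groups that overlapped, and Gnaq, the Gq subunit, one of -0.07 ± 0.05 (SE; adjusted p = 0.617, edgeR). Mgll, which degrades 2-arachidonoylglycerol, was the only tested gene of the list with a positive change, 0.24 ± 0.17 (SE; adjusted p = 0.603, edgeR), and its saline library 3 was low at 132 CPM against 207.5 and 209.6 CPM in the other two.

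The Gi/o side, on which group II and III receptors act, was closer to the whole table. Of 24 genes tested, 16 had a negative and 8 a positive change, the median was -0.05, and 0 passed the threshold in edgeR, DESeq2 or limma; 2 (against 11.8% of all tested genes) had an unadjusted p under 0.05 and 2 (against 9.52%) had baicalin values wholly below saline. Kcnj3, a subunit of the potassium channels that Gβγ opens (GIRK), was at 51.8 ± 6.49 CPM with saline and 42.1 ± 2.28 CPM with baicalin (SD, n = 3 each; log2 change -0.30 ± 0.10, SE; adjusted p = 0.381, edgeR), with a narrow overlap at saline library 1 (44.5 CPM) and baicalin library 1 (44.8 CPM). Kcnj6, its partner subunit, had 37.9, 37.1 and 41.3 CPM with saline and 33.1, 36.9 and 32.6 CPM with baicalin, just without overlap. Gnao1, the abundant Go subunit of neurons, was at 502 ± 37.9 and 437 ± 32.2 CPM (SD, n = 3 each; log2 change -0.20 ± 0.08, SE; adjusted p = 0.399, edgeR). Adcy9, an adenylyl cyclase, had a log2 change of -0.18 ± 0.11 (SE; adjusted p = 0.536, edgeR).

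Transcripts of several scaffolds that tether mGlu5 in the postsynaptic density were lower as well, none of them past the threshold in edgeR. Shank3, a master scaffold that binds Homer, had 137.4, 137.3 and 136.4 CPM in saline libraries 1, 2 and 3 and 110.3, 121.9 and 113.2 CPM in baicalin libraries 1, 2 and 3. The saline values were almost equal and all 3 baicalin values were well below them (log2 change -0.25 ± 0.05, SE; adjusted p = 0.275, edgeR). Homer2, whose protein binds the tail of mGlu5, was at 118 ± 4.35 CPM with saline and 93.9 ± 8.61 CPM with baicalin (SD, n = 3 each; log2 change -0.33 ± 0.07, SE; adjusted p = 0.313, edgeR). Shank2 and Shank1 had log2 changes of -0.32 ± 0.08 and -0.23 ± 0.07 (SE; adjusted p = 0.322 and 0.360, edgeR), both without overlap. Homer1, the best known of these partners, was scattered: 88.1, 97.1 and 63.2 CPM with saline and 53.6, 33.4 and 76.1 CPM with baicalin, a log2 change of -0.61 ± 0.30 (SE; adjusted p = 0.475, edgeR) with overlapping groups.

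The list of scaffolds, partners and desensitisers as a whole was less one-sided than these names. Of 30 tested genes, 20 had a negative and 10 a positive change, with a median of -0.05 (-0.02 without saline library 1 or without baicalin library 2); 5 had an unadjusted p under 0.05 (11.8% of all tested genes), 6 had baicalin values wholly below saline (9.52%) and 1 wholly above (9.93%). None passed the threshold in edgeR or limma, while DESeq2 called Shank3, Homer2 and Shank2 (adjusted p = 0.0148, 0.0178 and 0.0390). Elfn1, a postsynaptic protein that binds group III receptors across the synapse, had a log2 change of 0.01 ± 0.14 (SE; adjusted p = 0.990, edgeR). Rgs14, 1 of the 6 that were lower without overlap, is also among the CA2 markers. The gene wholly above saline was Pick1, with a log2 change of 0.17 ± 0.08 (SE, adjusted p = 0.463, edgeR). Homer3, unlike Homer1 and Homer2, had a positive log2 change, 0.09 ± 0.07 (SE, adjusted p = 0.630, edgeR), with groups that overlapped.

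Effectors of mGlu-dependent long-term depression gave 14 negative and 5 positive changes among 19 tested genes, with a median of -0.07 (-0.01 with the length trend removed). Of the 19, 2 had an unadjusted p under 0.05 in edgeR, against 11.8% of all tested genes, and 0 passed in edgeR, DESeq2 or limma. Baicalin values lay wholly below saline for 4 of them (against 9.52% of all tested genes) and wholly above for 2 (against 9.93%). Those 2 were Mapk3 (0.23 ± 0.12, SE) and Eef2 (0.04 ± 0.03, SE), a kinase and a translation elongation factor. Ptpn5 encodes STEP, a phosphatase whose synthesis mGlu5 activation raises, and was at 141 ± 8.32 CPM with saline and 127 ± 4.10 CPM with baicalin (SD, n = 3 each; log2 change -0.15 ± 0.06, SE; adjusted p = 0.395, edgeR). Arc, an immediate early gene whose protein drives AMPA receptor endocytosis, had 133.2, 134.6 and 83.2 CPM with saline and 89.4, 77.1 and 86.5 CPM with baicalin, so saline library 3 lay among the baicalin values (log2 change -0.47 ± 0.18, SE; adjusted p = 0.408, edgeR). Fmr1, the translation regulator lost in fragile X syndrome, had a log2 change of -0.13 ± 0.06 (SE; adjusted p = 0.430, edgeR) without overlap. Gria2, which this list shares with the AMPA receptor list, had one of -0.16 ± 0.07 (SE; adjusted p = 0.450, edgeR).

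Other receptors of class C, to which the mGlu receptors belong, differed little. Of 4 tested, 3 had a negative change, 1 had an unadjusted p under 0.05 in edgeR (against 11.8% of all tested genes) and 0 passed in edgeR, DESeq2 or limma. Baicalin values lay wholly below saline for 1 of the 4, against 9.52% of all tested genes. Gabbr2, the GABA-B subunit that couples to the G protein, had 347, 349 and 335 CPM with saline and 322, 326 and 313 CPM with baicalin, a small difference without overlap (log2 change -0.10 ± 0.04, SE; adjusted p = 0.395, edgeR). Gabbr1, the subunit that binds GABA, overlapped between groups at -0.04 ± 0.05 (SE; adjusted p = 0.740, edgeR). Gpr158 had a log2 change of -0.08 ± 0.05 (SE, adjusted p = 0.572, edgeR) and Gprc5b one of 0.06 ± 0.07 (SE, adjusted p = 0.767, edgeR).

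The ionotropic glutamate receptors serve as the nearest comparison. NMDA receptor subunits had a median log2 change of -0.07 over 6 tested genes and AMPA and kainate subunits one of -0.04 over 9. The mGlu receptors had a median of -0.06 over 5 (-0.02 without baicalin library 3, -0.03 without saline library 3 or with the length trend removed). Of either ionotropic list, 0 passed in edgeR, DESeq2 or limma. An unadjusted p under 0.05 in edgeR was reached by 2 NMDA and 1 AMPA or kainate gene, against 11.8% of all tested genes. Baicalin values lay wholly below saline for 2 NMDA and 1 AMPA or kainate gene, against 9.52% of all tested genes, and wholly above for 0. Grin2b and Grin2a, the main NMDA receptor GluN2 subunits of forebrain, had log2 changes of -0.18 ± 0.06 and -0.19 ± 0.06 (SE; adjusted p = 0.377 and 0.381, edgeR), both without overlap, and Gria3 had one of -0.35 ± 0.12 (SE; adjusted p = 0.388, edgeR). The size of the Grm5 change, -0.28, thus lay between those of these subunits.

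**Figure D4:**
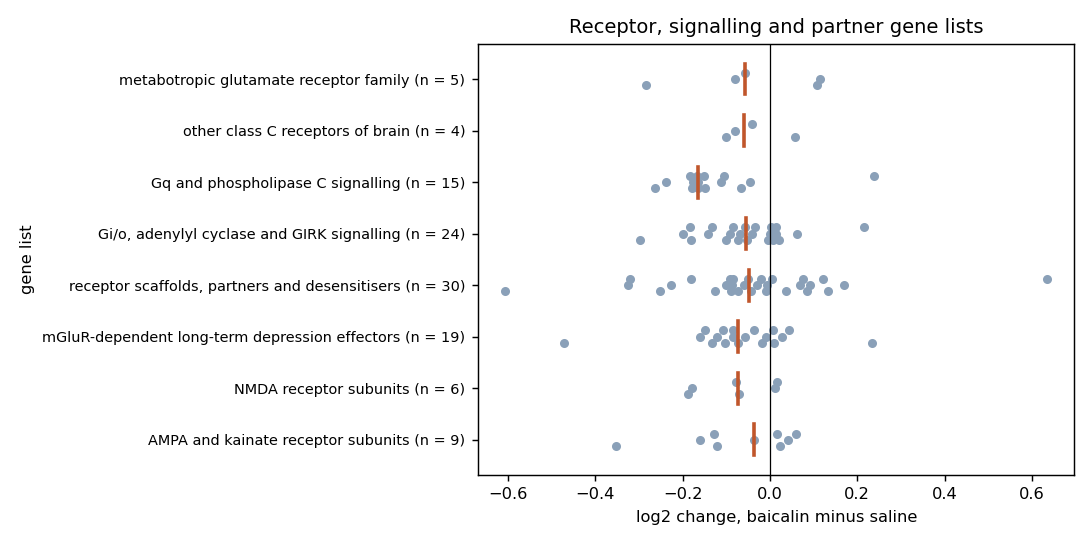
Log2 change with baicalin (horizontal axis) of each tested gene (points) in 8 gene lists, with the list's median as an orange line. The median of the Gq and phospholipase C list is -0.16, with Mgll its only point above 0; the medians of the other lists lie between -0.07 and -0.04.

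For each member, the tested genes whose log2 CPM ran most alike over the 6 libraries were ranked among 11531 named genes by Pearson's r, as a description that includes the group difference and the library-to-library spread. Grm5 ran most like Etnk1 and Arhgef28 (r = 0.995 for both, n = 6 libraries), and 310 genes had an r over 0.9 with it. For Grm2 they were Pcid2 (r = 0.999) and Nhej1 (0.989), for Grm3 Ktn1 (0.995) and Zzz3 (0.986), and for Grm4 Fuk (0.991) and Stac2 (0.986). For Grm7 they were Ints10 (0.9996) and Zfp446 (0.989), and for Grm8 Serpine2 (0.993) and Lrrtm3 (0.986). The other members had 53 to 125 genes above that r. With 6 points and this many genes, values this high occur for every member, and no other member was among the leading names.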

How the data were processed

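The deposited table gives, for each gene and library, a count and an FPKM value made by the authors; the counts are whole numbers that are not normalized and the FPKM values are scaled to transcript length and depth, per the file headers. The notes of the submitters name bcl2fastq 2.0, HISAT2, StringTie, DESeq2, limma and the build mm10; their options, the annotation release and strand use are not stated there or in the labels. The table's 12 other per-sample columns fit none of the sample labels and stayed unused. The filter was a mean of 1 FPKM or more (13153 of 32201 genes). Counts were scaled by TMM and tested with edgeR 4.0.16 (R 4.3.3), quasi-likelihood, treatment as the only term, Benjamini-Hochberg over all genes tested, threshold 0.05. The SE was derived from the log2 change and its F statistic. Grm8 was read from a fit of genes with at least 10 counts in all, with no FPKM filter. CPM values are TMM-scaled, as mean ± SD over 3 libraries; levels of different genes were compared in FPKM, with CPM shares as an alternative. DESeq2 1.42.0, limma 3.58.1 (pseudocount 1 or 0.1) and other scalings, filters and left-out libraries were the alternatives. Library totals were 61303274 to 67957752 counts. The scripts were tested on simulated data. The named genes were the members, Homer1, Elfn1, Gnaq, Plcb1, Gnao1, Gpr158, the 4 smallest unadjusted p-values of each pathway list, the 2 smallest of each ionotropic list and the 2 most alike genes per member. Mgll, Rgs14, Mapk3, Eef2, Slc17a7, Camk2a, Map2, Pick1, Homer3 and the choroid plexus genes were named after their values were seen. The members and lists were chosen with earlier results of these data known. Some items are not reported here. Coding sequences came from GENCODE release 21 and were aligned with MAFFT 7.526.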

Additional observations from a re-analysis of the deposited data

How the results depend on the processing

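No member passed the adjusted threshold in any alternative. The Grm5 log2 change was -0.37 to -0.22 over 18 alternatives, with adjusted p-values from 0.0616 (DESeq2) to 0.634 (edgeR without baicalin library 3). Grm2 was 0.01 to 0.27 (0.01 and 0.02 without baicalin or saline library 2, 0.27 without saline library 1), Grm3 -0.15 to -0.03, Grm7 -0.13 to -0.02 and Grm8 0.09 to 0.51. Grm4 was -0.069 without baicalin library 2, a reversed sign, and at most 0.29. Genes called numbered 6 in edgeR, 211 in DESeq2 and 2 to 39 with 1 library left out (39 and 2 when it was baicalin library 1 or 3, 10 and 14 when it was saline library 2 or 3). With the replicate number as a block edgeR called 0 genes (1120 at an unadjusted p under 0.05), and Grm5 was at -0.29; same-numbered libraries correlated at 0.12, 0.08 and 0.01, so the numbers were not taken to pair the samples. Under DESeq2 2 genes of the Gq list and 3 of the scaffold list passed.

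TPM scaling moved the list medians to -0.13 (mGlu receptors), -0.14 (class C), -0.23 (Gq), -0.13 (Gi/o), -0.12 (scaffolds), -0.14 (long-term depression), -0.14 (NMDA) and -0.11 (AMPA and kainate), with an all-gene median of -0.07. It turned the split at an unadjusted p under 0.05 from 834 higher and 718 lower to 408 and 1420. Removing the length trend gave -0.013 (class C), -0.11 (Gq), -0.011 (long-term depression) and -0.015 (NMDA). The NMDA median was -0.14 at a filter of 5 FPKM. With 1 library left out, class C was -0.080 to -0.027 (highest without saline library 2), long-term depression -0.082 to -0.042 (highest without baicalin library 3) and NMDA -0.12 to -0.047 (lowest without saline library 3). The mGlu receptors were -0.076 to -0.024 (highest without baicalin library 3), scaffolds -0.069 to -0.024 (highest without saline library 1 or baicalin library 2) and AMPA and kainate -0.075 to -0.017 (lowest without baicalin library 2, highest without baicalin library 1). By CPM, which is not per length, the shares of the 6 members were 56.2% Grm5, 18.1% Grm7, 12.4% Grm2, 9.08% Grm3 and 1.31% Grm8. The cause of these shifts was not tested.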
